A study of Mus musculus with 21 samples.

Results

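The 8 genes *Lef1*, *S1pr1*, *Klf2*, *Il6ra*, *Il6st*, *Bach2*, *Foxo1* and *Satb1* are high in naive and resting T cells. They were taken by gene symbol from an array table of 19505 genes, and each was measured by 1 transcript cluster. The table holds RNA levels of CD8+ T cells from 21 cultures, 7 in each of 3 media. Splenic T cells of wildtype mice were activated with CD3/CD28 Dynabeads in all 3 groups, so that no group is an unactivated control. They were then cultured in fresh medium, in sterile-filtered supernatant of WEHI 3B cells (AML medium) or in that of dendritic cells derived from bone marrow (DC medium). The titles name the control Tc+Tc (fresh medium) and the other groups Tc+medium[WEHI] and Tc+medium[DC]. They do not explain the second Tc of the control. WEHI 3B is a mouse myelomonocytic leukaemia line, a single line that stands here for acute myeloid leukaemia. After 48 h of culture a magnetic separation recovered the CD8+ cells. The labels give neither the age of the mice nor the number of animals behind a replicate.

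Naive T cells recirculate between blood and lymph nodes in a resting state that transcription factors maintain actively. FOXO1 is kept in the nucleus when signalling through PI3K and AKT is low, and there it drives genes of homing and survival, *Klf2* among them. KLF2 in turn activates *S1pr1*, the receptor with which T cells follow sphingosine 1-phosphate out of lymph nodes. LEF1, BACH2 and SATB1 are nuclear regulators of T cell identity: LEF1 acts with beta-catenin or with corepressors, BACH2 restrains effector genes and SATB1 organises chromatin. *Il6ra* encodes the chain that binds interleukin 6, and *Il6st* encodes gp130, the signalling chain that it shares with receptors of related cytokines. Activation through the T cell receptor lowers many of these genes.

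The gene that changed with the medium was *Il6ra*, and its promoter is shown with those of its partner *Il6st* and of *Klf2*, which had its lowest levels in 2 of the AML cultures. RefSeq promoter windows were matched for 7 of the 8 genes. Each line gives the 250 bases before the most upstream transcript start, 5′ to 3′ on the strand of the gene, with matches to the motifs searched in capitals.
*Il6ra*, GRCm38.p6 chr3:89913197-89913446, minus strand: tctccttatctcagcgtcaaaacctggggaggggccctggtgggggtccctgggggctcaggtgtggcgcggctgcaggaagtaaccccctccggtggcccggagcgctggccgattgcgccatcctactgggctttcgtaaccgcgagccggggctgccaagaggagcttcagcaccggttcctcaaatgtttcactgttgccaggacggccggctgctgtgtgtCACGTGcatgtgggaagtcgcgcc
*Il6st*, GRCm38.p6 chr13:112463820-112464069, plus strand: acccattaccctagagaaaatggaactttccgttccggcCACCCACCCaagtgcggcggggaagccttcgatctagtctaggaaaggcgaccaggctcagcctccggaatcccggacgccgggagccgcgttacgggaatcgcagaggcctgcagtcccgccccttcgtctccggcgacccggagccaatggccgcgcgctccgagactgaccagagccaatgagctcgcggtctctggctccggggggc
*Klf2*, GRCm38.p6 chr8:72318812-72319061, plus strand: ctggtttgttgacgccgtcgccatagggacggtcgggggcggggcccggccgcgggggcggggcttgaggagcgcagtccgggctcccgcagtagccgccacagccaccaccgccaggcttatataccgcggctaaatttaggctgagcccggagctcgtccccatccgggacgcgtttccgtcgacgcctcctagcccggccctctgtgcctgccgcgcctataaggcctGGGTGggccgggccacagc
The motifs, searched on both strands, were TGTTTAC (FOXO), CACCC (KLF), CTTTGA (TCF/LEF), TTCNNNGAA (GAS, bound by STAT factors), TGANTCA (AP-1), CACGTG (E-box) and GTCTAGAC (SMAD). The *Il6ra* window held 1 E-box starting 24 bases before the transcript start and no other match. An E-box stood in 6.02% of the 32851 promoter windows of this length. The *Klf2* window held 1 KLF match and the *Il6st* window 2 that overlap. A KLF match was found in 4 of the 7 windows of these genes, against 52.0% of all windows, so its presence does not set them apart. The *Bach2* window held 1 TCF/LEF match and 1 GAS match, which stood in 13.8% and 7.02% of all windows. The FOXO, AP-1 and SMAD letters were in none of the 7 windows and in 3.17%, 6.75% and 0.167% of all windows. A match describes the letters and not the binding of a factor.

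The cells carried the RNA of T cells in all 3 media. None of the 7 measured genes of the CD8+ T cell list passed the test in any comparison. Their mean log2 level lay between 10.85 and 11.12 in all 21 arrays. Of this list *Cd8a* and *Cd8b1* are particular to CD8+ cells, and the others are shared with CD4 T cells. AML differed from fresh medium by 0.04 (SE 0.06) for *Cd8a* and by -0.04 (SE 0.06) for *Cd8b1*. The description field alone speaks of CXCL12-abundant reticular cells, and the 8 stromal markers averaged between 4.13 and 4.46 with no call. The 5 NK cell, 7 granulocyte and 2 erythroid markers had no call either. In the AML arrays *Cd4*, which marks helper T cells, had risen (8.56 ± 0.43 against 7.77 ± 0.31 in fresh medium, SD, n = 7 each). *H2-Ab1*, a class II chain of dendritic and B cells, had fallen (6.96 ± 1.02 against 8.29 ± 0.35). It was the single call among 10 dendritic cell markers, whose median difference was 0.05 and whose list means were 4.38 to 4.67 in fresh, 4.36 to 4.68 in AML and 4.50 to 4.74 in DC arrays. *H2-Eb1*, another class II chain, differed by -0.03 (SE 0.10). Bulk RNA cannot tell fewer cells of a type from less RNA per cell. The log2 values come from RMA, a method that normalizes the arrays to each other. It gives no separate detection call, and the number of arrays limits the precision.

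**Figure D1:**
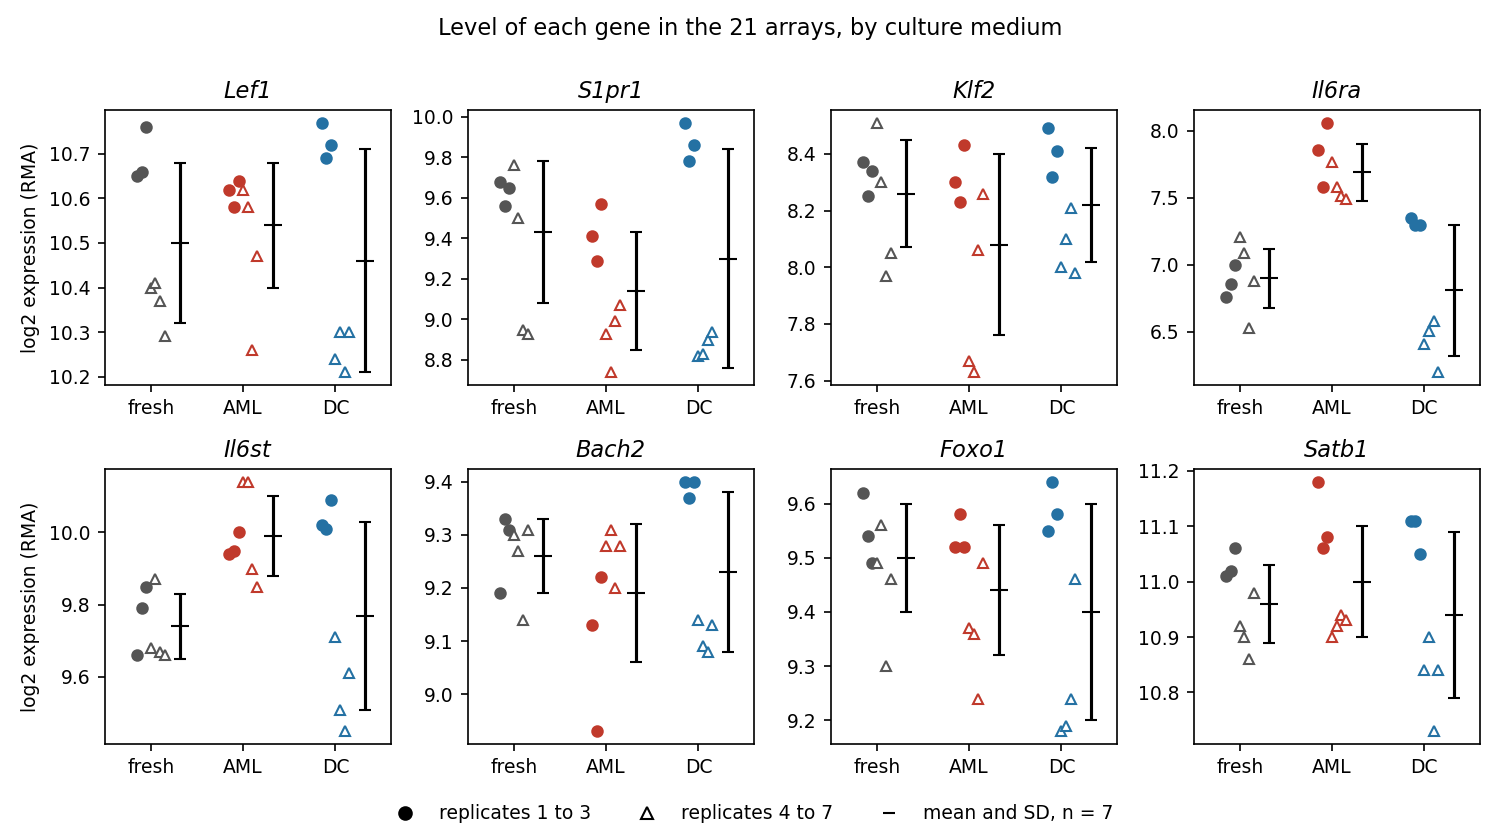
Log2 expression (RMA) of the 8 genes in each of the 21 arrays by culture medium, with filled circles for replicates 1 to 3, open triangles for replicates 4 to 7, and the mean and SD (n = 7) beside them; each panel has its own axis. The 7 AML arrays lie above all other arrays for *Il6ra*, and in the DC arrays circles and triangles separate for all 8 genes.

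After AML medium 1 of the 8 genes rose, *Il6ra*, and none fell. The receptor gene *Il6ra* had log2 levels from 6.53 to 7.21 in fresh medium (median 6.88), from 7.49 to 8.06 in AML medium (median 7.58) and from 6.20 to 7.35 in DC medium (median 6.58). All 7 AML arrays were thus above all 14 other arrays, while the fresh and DC arrays overlapped. The rise against fresh medium was 1.73-fold (log2 0.79, SE 0.16, 95% interval 0.46 to 1.12, limma adjusted p = 0.00831 over all genes). Of all 19505 genes, 2.77% passed this test, 1.3% with a rise and 1.48% with a fall, and 0.354% had all AML arrays above all fresh arrays; 15.9% had an unadjusted p under 0.05. Against DC medium *Il6ra* was 1.85-fold higher (log2 0.89, SE 0.16, 95% interval 0.56 to 1.22, adjusted p = 0.00421). In that comparison 2.39% of all genes passed, 1.13% higher and 1.26% lower in AML medium, and 0.436% had all AML arrays above all DC arrays. The 2 comparisons share the AML arrays and are not independent.

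The size of the *Il6ra* difference varied with the set of replicates, while its direction did not. The replicate numbers run from 1 to 7 in each medium, and arrays 1 to 3 and 4 to 7 separate for many genes. The titles call them biological replicates. They do not say whether equal numbers are paired or share a batch, and this division was chosen with the data known. Against fresh medium *Il6ra* differed by 0.96 in replicates 1 to 3 (adjusted p = 0.00192 in those arrays alone, limma) and by 0.66 in replicates 4 to 7, where the call was lost (adjusted p = 0.0800). Against DC medium the order was turned, with 0.52 in replicates 1 to 3 (adjusted p = 0.0643) and 1.16 in replicates 4 to 7 (adjusted p = 0.00147). Whether the sets differ from each other was not tested. No single array carried the call: with each of the 21 arrays left out in turn *Il6ra* passed every time, at 0.73 to 0.84 against fresh and 0.78 to 0.98 against DC medium. Without AML replicates 4 and 5, which were the lowest for *Klf2*, it differed from fresh medium by 0.80 (adjusted p = 0.0474).

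Cells other than CD8+ T cells also transcribe *Il6ra*, so their markers are given beside it. Of 5 measured CD4 T cell markers 1 rose after AML medium, as did 1.3% of all genes: *Cd4* itself (log2 0.79, SE 0.18, adjusted p = 0.0150). The 5 differences from fresh medium ran from 0.03 to 0.79, with a median of 0.17 against -0.014 over all genes. Against DC medium they ran from 0.08 to 0.54 (median 0.24), and none passed. The mean of that list ranged from 6.01 to 6.53 in fresh, from 6.29 to 6.85 in AML and from 6.10 to 6.65 in DC arrays. The 8 monocyte and macrophage markers had no call, with list means of 3.98 to 4.32 in fresh, 4.03 to 4.29 in AML and 4.02 to 4.35 in DC arrays. The 7 B cell markers had none either, with means of 4.24 to 4.69, 4.17 to 4.50 and 4.18 to 4.48. The RMA scale has no zero, so absence of a marker cannot be read from these levels. The part of other cells in the *Il6ra* difference was not tested.

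*Il6st*, the gp130 chain that pairs with the interleukin 6 receptor, was higher in the same direction but did not pass. Its log2 level was 9.66 to 9.87 in fresh medium (median 9.68), 9.85 to 10.14 in AML medium (median 9.95) and 9.45 to 10.09 in DC medium (median 9.71). In 6 of 7 AML arrays it was above every fresh array, and AML replicate 7 overlapped them by a small margin. The difference from fresh medium was 0.25 (SE 0.09, 95% interval 0.06 to 0.44, adjusted p = 0.153), and that from DC medium 0.22 (SE 0.09, adjusted p = 0.251). Both sets gave the same direction against fresh medium (0.20 for replicates 1 to 3, 0.29 for replicates 4 to 7). Against DC medium the sets gave -0.07 and 0.44, and DC replicates 1 to 3 lay within the AML range.

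Other genes of interleukin 6 and gp130 signalling moved in part. Over all genes 1.3% rose after AML medium and 1.48% fell. Of 21 measured genes of this list 3 rose, none fell and 18 did not pass, with a median difference of 0.01 against -0.014 over all genes. The 3 were *Lif* and *Osm*, which encode cytokines that signal through gp130, and *Socs1*, a feedback inhibitor of JAK kinases. *Socs1* was at 8.22 to 8.75 in fresh (median 8.54), 8.46 to 9.19 in AML (median 8.93) and 8.34 to 8.61 in DC arrays (median 8.43). It rose by 0.39 against fresh (SE 0.09, adjusted p = 0.0256) and was 0.46 higher than in DC medium (SE 0.09, adjusted p = 0.00964). The fresh and AML ranges of *Socs1* overlap. Leaving out any 1 of fresh replicates 3 and 6 and AML replicates 2 and 5 ended the call against fresh medium (0.33 to 0.37, adjusted p = 0.0506 to 0.0767). *Lif* rose by 1.34 against fresh medium (SE 0.30, adjusted p = 0.0158) and *Osm* by 0.99 (SE 0.21, adjusted p = 0.0126), at 7.01 to 8.69 and 6.20 to 7.68 in fresh arrays. Neither passed without AML replicates 4 and 5 (1.08, adjusted p = 0.135, and 0.97, adjusted p = 0.0638). Both rises were larger among the lower replicate numbers (1 to 3) than among the higher (4 to 7). They were 1.74 against 1.05 for *Lif* and 1.64 against 0.50 for *Osm*. Against DC medium *Lif* was 2.69-fold higher (log2 1.43, SE 0.30, adjusted p = 0.0122), at 6.60 to 8.41 in DC and 8.09 to 9.75 in AML arrays. *Osm* was 1.81-fold higher (log2 0.86, SE 0.21, adjusted p = 0.0289), at 6.51 to 7.44 and 7.16 to 8.31. Both ranges overlap, and without AML replicates 4 and 5 *Lif*, *Osm* and *Socs1* did not pass there (1.17, 0.84 and 0.42, adjusted p = 0.108, 0.135 and 0.0603). The *Osm* call against DC medium was lost without any 1 of DC replicates 1 to 4 or AML replicates 1, 2, 4 and 5 (0.76 to 0.89, adjusted p = 0.0519 to 0.0761). Split by set, lower numbers first, *Lif* exceeded DC medium by 2.15 and 0.88, *Osm* by 1.48 and 0.39 and *Socs1* by 0.49 and 0.44. After DC medium none of the 21 passed, and the smallest p was that of *Cntfr*, the ciliary neurotrophic factor receptor (-0.17, SE 0.07, adjusted p = 0.737).

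**Figure D2:**
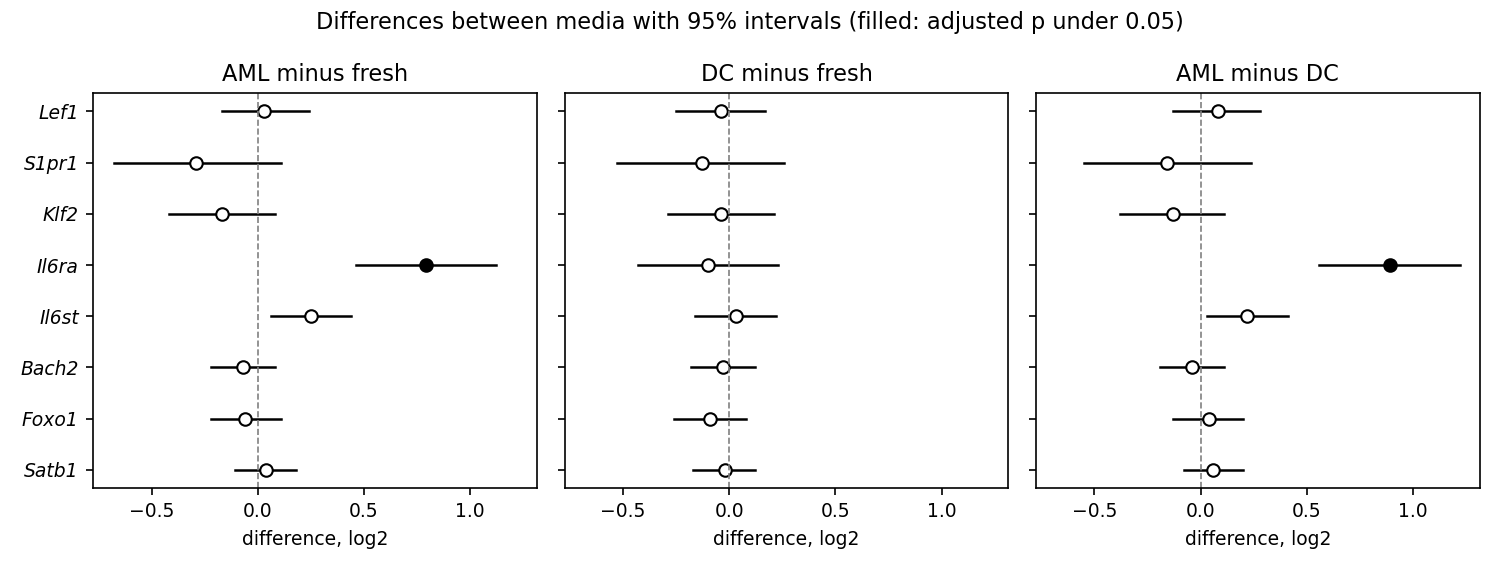
Log2 differences between media (x axis) for the 8 genes, with 95% intervals from the fit over all 21 arrays and filled points at an adjusted p under 0.05. *Il6ra* is filled at 0.79 and 0.89 in both AML comparisons, and the intervals of the other genes lie between -0.68 and 0.44.

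*Foxo1*, *Klf2* and *S1pr1*, the transcription factor genes and the egress receptor of the resting programme, did not pass in any comparison. *Foxo1* was at 9.30 to 9.62 in fresh (median 9.49), 9.24 to 9.58 in AML (median 9.49) and 9.18 to 9.64 in DC arrays (median 9.46). The 3 ranges overlap almost wholly, and AML differed from fresh medium by -0.06 (SE 0.08, 95% interval -0.22 to 0.11, adjusted p = 0.816). *Klf2* was at 7.97 to 8.51 in fresh (median 8.30), 7.63 to 8.43 in AML (median 8.23) and 7.98 to 8.49 in DC arrays (median 8.21). AML replicates 4 and 5 were at 7.67 and 7.63, below the other 19 arrays. The *Klf2* difference between AML and fresh medium was -0.17 (SE 0.12, 95% interval -0.42 to 0.08, adjusted p = 0.528), and 0.00 without those 2 arrays. *S1pr1* was at 8.93 to 9.76 in fresh (median 9.56), 8.74 to 9.57 in AML (median 9.07) and 8.82 to 9.97 in DC arrays (median 8.94). Its levels fell into a higher and a lower cluster in fresh and DC medium, with fresh replicates 6 and 7 and DC replicates 4 to 7 in the lower one. *S1pr1* differed by -0.29 between AML and fresh medium (SE 0.19, 95% interval -0.68 to 0.11, adjusted p = 0.50), and by -0.16 without AML replicates 4 and 5. The intervals do not exclude a fall of *S1pr1* to 0.623-fold, so the 3 genes are not shown to be alike across media.

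Genes around FOXO1 and the S1P receptor had few calls. Over all genes 1.3% rose and 1.48% fell after AML medium. Of 19 measured genes of PI3K, AKT and FOXO signalling 1 fell after AML medium, *Phlpp1*, which encodes a phosphatase that acts on AKT (-0.31, SE 0.08, adjusted p = 0.0440), and 18 did not pass. It was at 7.52 to 7.68 in fresh and 6.90 to 7.47 in AML arrays, with no overlap. Its call was lost in 21 of 35 alternatives. Among them were the fits without any 1 of DC replicates 2, 4, 5 and 7, fresh replicates 1 to 7 or AML replicates 3 to 5 (-0.33 to -0.25, adjusted p = 0.0520 to 0.123), and without AML replicates 4 and 5 the difference was -0.18. No gene of this list passed against DC medium, where *Foxo4*, a relative of *Foxo1*, had the smallest p (-0.24, SE 0.11, adjusted p = 0.290). After DC medium it was the kinase gene *Akt2* (0.12, SE 0.06, adjusted p = 0.808).

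Of 15 measured genes of sphingosine 1-phosphate signalling 1 fell after AML medium, as did 1.48% of all genes. It was *Arrb1*, the gene of beta-arrestin 1, an adaptor that desensitises G protein-coupled receptors. *Arrb1* was at 8.86 to 9.28 in fresh (median 9.07), 7.35 to 8.87 in AML (median 8.30) and 8.73 to 9.23 in DC arrays (median 9.0). The drop from fresh medium was -0.85 (SE 0.17, adjusted p = 0.00698) and the difference from DC medium -0.79 (SE 0.17, adjusted p = 0.0122). With AML replicates 4 and 5 left out they were -0.56 (adjusted p = 0.0293) and -0.51 (adjusted p = 0.0521). The smallest p of the list after DC medium belonged to *S1pr5*, another S1P receptor gene (-0.14, SE 0.10, adjusted p = 0.868). The list medians were 0.02 after AML and -0.05 after DC medium.

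Levels of *Klf2* and *S1pr1*, a transcription factor and its known target, were correlated between cultures of 1 medium, but not past the correction for the pairs compared. Deviations from the mean of a medium were compared within each set of replicates. In replicates 1 to 3 Pearson's r was 0.99 and Spearman's rho 1.00 over 9 arrays, and in replicates 4 to 7 r was 0.77 and rho 0.73 over 12 arrays. The exact two-sided permutation p of r was 0.00463 in both sets, in the first the smallest that rearranging arrays within media can give. Adjusted over the 56 correlations computed among the 8 genes it was 0.0864 in both, so neither passed the correction (0.130 and 0.265 for rho). *Lef1* and *Il6ra* had the same p and adjusted p in replicates 1 to 3 (r = 0.70, rho = 0.85, 9 arrays, exact permutation). In that set even the smallest possible p passes the correction only if several other pairs have p about as small. The correction therefore could not decide on a single pair there. For *Klf2* with *S1pr1*, the 2 arrays of each set farthest from the median of *S1pr1* were left out. This gave r of 1.00 and 0.71, the lower replicate numbers first, and *Klf2* levels played no part in the choice of arrays. AML replicates 4 and 5 were low in *Klf2* and in *S1pr1*, at 8.93 and 8.74 for *S1pr1*.

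**Figure D3:**
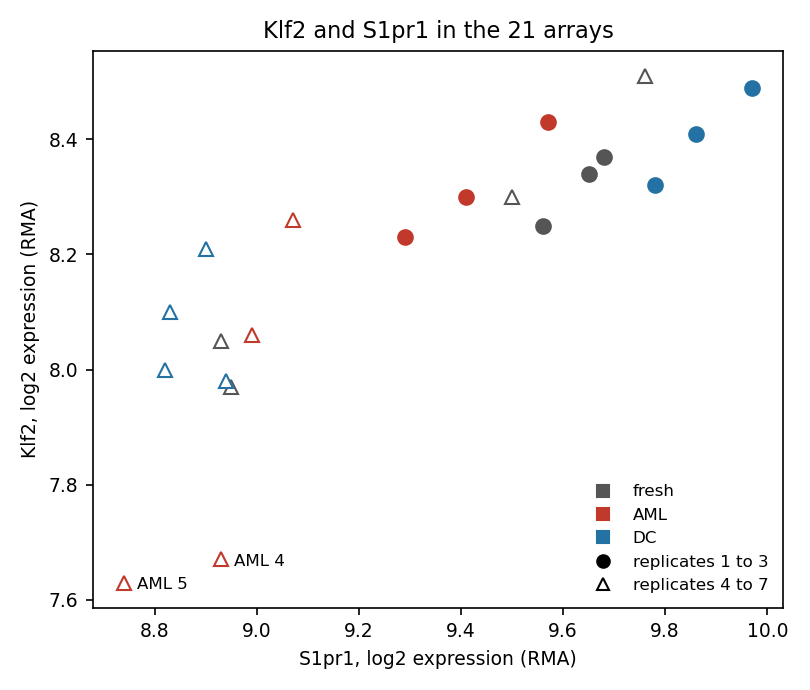
Log2 expression (RMA) of *Klf2* (y axis) against *S1pr1* (x axis) in the 21 arrays, coloured by medium, with filled circles for replicates 1 to 3 and open triangles for replicates 4 to 7. AML replicates 4 and 5 are the lowest points for *Klf2*, at 7.67 and 7.63, and the 9 circles lie to the right of all AML and DC triangles.

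The identity regulators *Lef1*, *Bach2* and *Satb1* differed little between media. *Lef1* was at 10.29 to 10.76 in fresh (median 10.41), 10.26 to 10.64 in AML (median 10.58) and 10.21 to 10.77 in DC arrays (median 10.30). *Bach2* was at 9.14 to 9.33 (median 9.30), 8.93 to 9.31 (median 9.22) and 9.08 to 9.40 (median 9.14) in the same order, and *Satb1* at 10.86 to 11.06 (median 10.98), 10.90 to 11.18 (median 10.94) and 10.73 to 11.11 (median 10.90). All 3 genes overlap between all media. Against fresh medium AML arrays differed by 0.03 for *Lef1* (SE 0.10, 95% interval -0.17 to 0.24), by -0.07 for *Bach2* (SE 0.07, -0.22 to 0.08) and by 0.04 for *Satb1* (SE 0.07, -0.11 to 0.18). Their adjusted p were 0.925, 0.697 and 0.868. On the linear scale the intervals reach from 0.886-fold to 1.18-fold for *Lef1*, from 0.857-fold to 1.06-fold for *Bach2* and from 0.928-fold to 1.13-fold for *Satb1*. They do not show the levels to be equal.

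Of 17 measured genes of partners and opponents of BACH2 15 did not pass after AML medium. Of the others 1 rose, *Eomes*, a T-box factor of effector and memory CD8+ cells, and 1 fell, *Prdm1*, which encodes BLIMP1, a repressor that drives terminal differentiation and that BACH2 represses. The effector regulators *Tbx21* (0.07), *Id2* (-0.22), *Irf4* (0.32) and *Batf* (-0.21) were among those that did not pass. Over all genes 1.3% rose and 1.48% fell. *Eomes* was at 8.46 to 8.72 in fresh, 8.64 to 9.80 in AML (median 9.32) and 8.25 to 8.64 in DC arrays, and it had risen 1.63-fold against fresh medium (log2 0.71, SE 0.14, adjusted p = 0.00844). *Prdm1* was at 4.96 to 6.00 in fresh (median 5.54), 2.86 to 5.42 in AML (median 4.45) and 4.74 to 6.45 in DC arrays (median 5.82). It fell by 1.27 (SE 0.32, adjusted p = 0.0322), with fresh and AML ranges that overlap. The median of all transcript clusters was 5.23 to 5.4 across arrays, above the *Prdm1* median of 4.45 in AML arrays. Without AML replicates 4 and 5 neither passed against fresh medium, at 0.50 for *Eomes* (adjusted p = 0.0705) and -0.72 for *Prdm1* (adjusted p = 0.198). The *Prdm1* call was also lost without any 1 of fresh replicates 2, 4, 5, 6 and 7 or AML replicates 3, 4 and 5 (-1.29 to -1.03, adjusted p = 0.0506 to 0.0890). Against DC medium *Eomes* was 0.79 higher (SE 0.14, adjusted p = 0.00457) and *Prdm1* differed by -1.46 (SE 0.32, adjusted p = 0.0153). Without AML replicates 4 and 5 *Prdm1* did not pass there (-0.91, adjusted p = 0.0831). The lower replicate numbers (1 to 3) gave smaller *Prdm1* differences than the higher (4 to 7). These were -0.80 against -1.62 from fresh medium and -0.72 against -2.02 from DC medium. After DC medium the smallest p was that of *Fosl2*, an AP-1 factor (-0.32, SE 0.10, adjusted p = 0.680).

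The lists around LEF1 and SATB1 had no call after AML medium. None of 19 Wnt and LEF1 genes and none of 11 SATB1 and chromatin genes passed with limma against fresh medium. The smallest p belonged to *Tle3*, a corepressor of LEF1 (0.32, SE 0.11, unadjusted p = 0.00627, adjusted p = 0.110), and to *Kat2b*, a histone acetyltransferase (0.25, SE 0.10, unadjusted p = 0.0184, adjusted p = 0.195). Against DC medium 1 gene of each was higher, as were 1.13% of all genes. *Tcf7l2*, a relative of *Lef1*, was at 4.55 to 4.83 in DC and 4.78 to 6.25 in AML arrays (log2 0.67, SE 0.16, adjusted p = 0.0239). It did not pass without AML replicate 4 or 5 (0.52 and 0.58, adjusted p = 0.0519 and 0.0720) or without both (0.40). The DC levels of *Tcf7l2* lay below the median of all transcript clusters, which was 5.23 to 5.4 across arrays. *Cux1*, a homeodomain factor, was 0.26 higher (SE 0.07, adjusted p = 0.0397) and lost its call in 15 of 35 alternatives. These included the fits without any 1 of DC replicates 4 to 7 or AML replicates 1 to 5 and 7 (0.24 to 0.28, adjusted p = 0.0524 to 0.0920). After DC medium the smallest p were those of *Gsk3b*, a kinase that restrains beta-catenin (0.09, SE 0.06, adjusted p = 0.839), and *Kat2b* (0.20, SE 0.10, adjusted p = 0.775).

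Other genes of naive T cells changed in single cases. Of 21 measured, *Igfbp4*, which encodes an insulin-like growth factor binding protein found in naive T cells, rose after AML medium and 20 did not pass (median 0.09). It was at 6.67 to 7.63 in fresh (median 7.12), 7.76 to 8.21 in AML (median 7.97) and 7.12 to 7.73 in DC arrays (median 7.33), so that AML arrays overlapped with neither group. The rise was 1.77-fold (log2 0.83, SE 0.12, adjusted p = 0.000727) and passed in all 35 alternatives, from 0.73 to 0.96. Over all genes 1.3% rose after AML medium. Against DC medium *Igfbp4* was 1.53-fold higher (log2 0.61, SE 0.12, adjusted p = 0.00835), with 0.98 in replicates 1 to 3 and 0.33 in replicates 4 to 7, where it did not pass (adjusted p = 0.151). *Il7r*, the interleukin 7 receptor chain that keeps resting T cells alive, was 1.22-fold higher than in DC medium (log2 0.29, SE 0.07, adjusted p = 0.0177). It was at 10.35 to 10.66 in AML and 10.08 to 10.38 in DC arrays, and the call ended without AML replicates 4 and 5 (0.31, adjusted p = 0.0527). After DC medium none of the 21 passed, and *Ccr7*, a homing receptor gene, had the smallest p (-0.15, SE 0.06, adjusted p = 0.756).

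Of 23 other quiescence genes 2 rose after AML medium, none fell and 21 did not pass (median 0.00). Over all genes 1.3% rose and 1.48% fell. *Peli1*, a ubiquitin ligase that restrains T cell activation, was at 9.45 to 9.78 in fresh and 9.74 to 10.39 in AML arrays and rose by 0.42 (SE 0.10, adjusted p = 0.0168). *Klf9*, another Krüppel-like factor, was at 5.56 to 5.96 and 5.66 to 6.41 and rose by 0.41 (SE 0.10, adjusted p = 0.0246). The AML and fresh ranges overlap for both. Without AML replicates 4 and 5 neither passed (0.30 for *Peli1*, adjusted p = 0.137, and 0.36 for *Klf9*, adjusted p = 0.126), and leaving out any 1 of fresh replicates 2 and 4 and AML replicates 2 and 5 also ended the *Klf9* call (0.35 to 0.39, adjusted p = 0.0519 to 0.0720). Against DC medium *Peli1* (0.39, SE 0.10, adjusted p = 0.0258) and *Socs2*, a feedback inhibitor of cytokine receptors (0.93, SE 0.25, adjusted p = 0.0430), were higher. *Peli1* lost that call in 10 of 35 alternatives, among them the fits without any 1 of DC replicates 4 to 7 or AML replicates 4 and 5 (0.33 to 0.38, adjusted p = 0.0589 to 0.0754). *Socs2* lost it in 18, among them those without any 1 of DC replicates 1, 2, 3 and 7, fresh replicates 2 and 5 or AML replicates 1 to 5 (0.80 to 0.97, adjusted p = 0.0507 to 0.109). The sizes against DC medium depended on the set. For *Socs2* the lower numbers (1 to 3) alone gave 1.70 and the higher (4 to 7) alone 0.34. For *Peli1* they gave 0.17 and 0.57. After DC medium *Kdm6b*, a histone demethylase, had the smallest p (-0.16, SE 0.12, adjusted p = 0.881).

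Activation and effector genes are given as the counterpart of the resting programme. None of the 19 measured passed in any comparison with limma. Their medians were 0.06 after AML and 0.02 after DC medium, and 0.08 between AML and DC medium. Single genes differed more, from -0.35 to 0.84, from -0.46 to 0.31 and from -0.4 to 0.91 in the same order. That none passed does not show the levels to be equal. The smallest p were those of *Myc*, a growth regulator, after AML medium (0.40, SE 0.11, unadjusted p = 0.00183, adjusted p = 0.0573), *Ifng* after DC medium (-0.46, SE 0.27, unadjusted p = 0.0970) and *Il2ra* between AML and DC medium (0.57, SE 0.16, unadjusted p = 0.00158, adjusted p = 0.0575). *Ifng* encodes interferon gamma, and *Il2ra* the alpha chain of the interleukin 2 receptor. *Il2ra* was at 8.83 to 9.52 in AML, 7.77 to 8.85 in DC and 7.97 to 8.93 in fresh arrays.

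**Figure D4:**
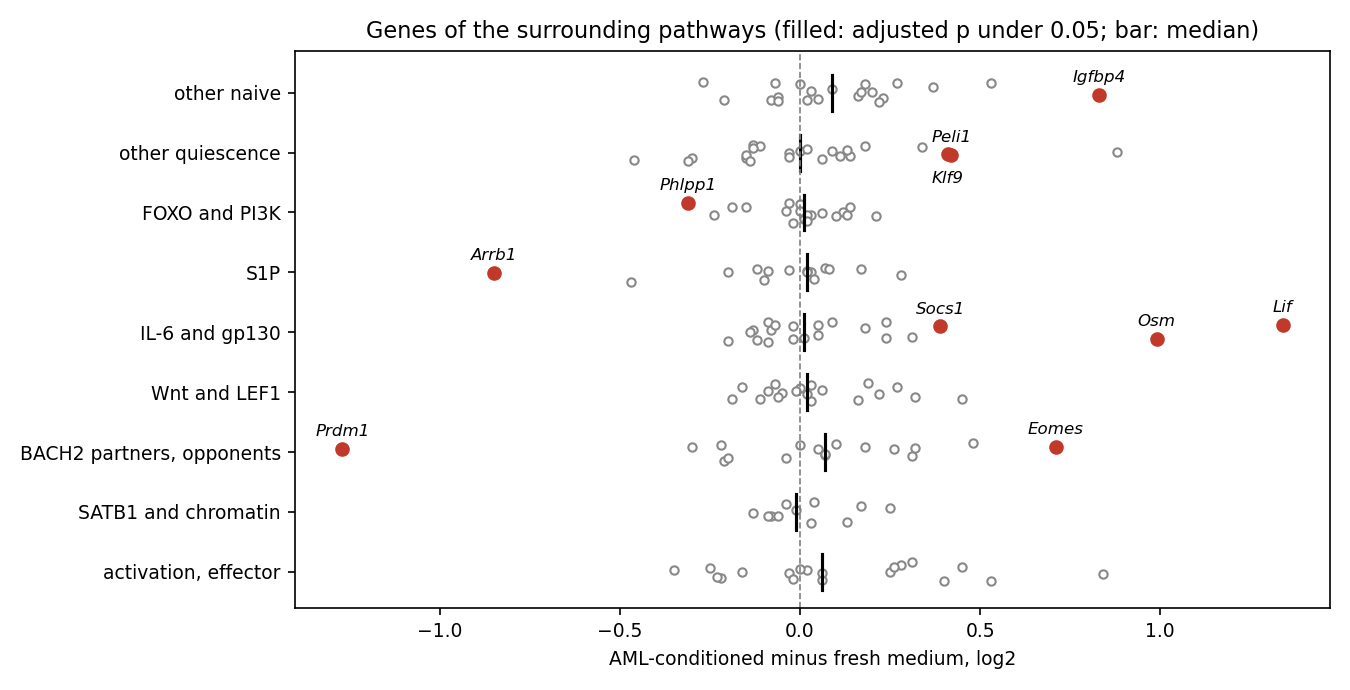
Log2 differences between AML-conditioned and fresh medium (x axis) for the measured genes of 9 surrounding lists (rows), with filled red points at an adjusted p under 0.05 and a bar at each list's median. List medians lie between -0.01 and 0.09, and the called genes include *Lif* at 1.34 and *Prdm1* at -1.27.

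After DC medium none of the 8 genes passed, and 0% of all 19505 genes did (0 with limma, 1251 or 6.41% at an unadjusted p under 0.05). None of the 8 had its DC arrays wholly above the fresh arrays, as 0.0359% of all genes did. The differences from fresh medium ran from -0.13 for *S1pr1* (SE 0.19, 95% interval -0.53 to 0.26) to 0.03 for *Il6st* (SE 0.09, -0.16 to 0.22). All 8 differences were above 0 in replicates 1 to 3 and below 0 in replicates 4 to 7, a pair of signs that 23.3% of all genes had. None passed in either set alone with limma. The lowest adjusted p of the 8 was 0.468 among replicates 1 to 3, and among replicates 4 to 7 it was 0.66. For *Il6ra* they were 0.44 and -0.50, for *S1pr1* 0.24 and -0.41 and for *Il6st* 0.27 and -0.15. *Bach2* differed by 0.11 and -0.14, *Foxo1* by 0.04 and -0.19, *Klf2* by 0.09 and -0.13, *Lef1* by 0.04 and -0.11 and *Satb1* by 0.06 and -0.08. DC replicates 1 to 3 held *Il6ra* at 7.35, 7.30 and 7.30, above every fresh array, and DC replicates 4, 5 and 7 held it at 6.41, 6.51 and 6.20, below every fresh array. The difference between the sets was not tested.

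**Figure D5:**
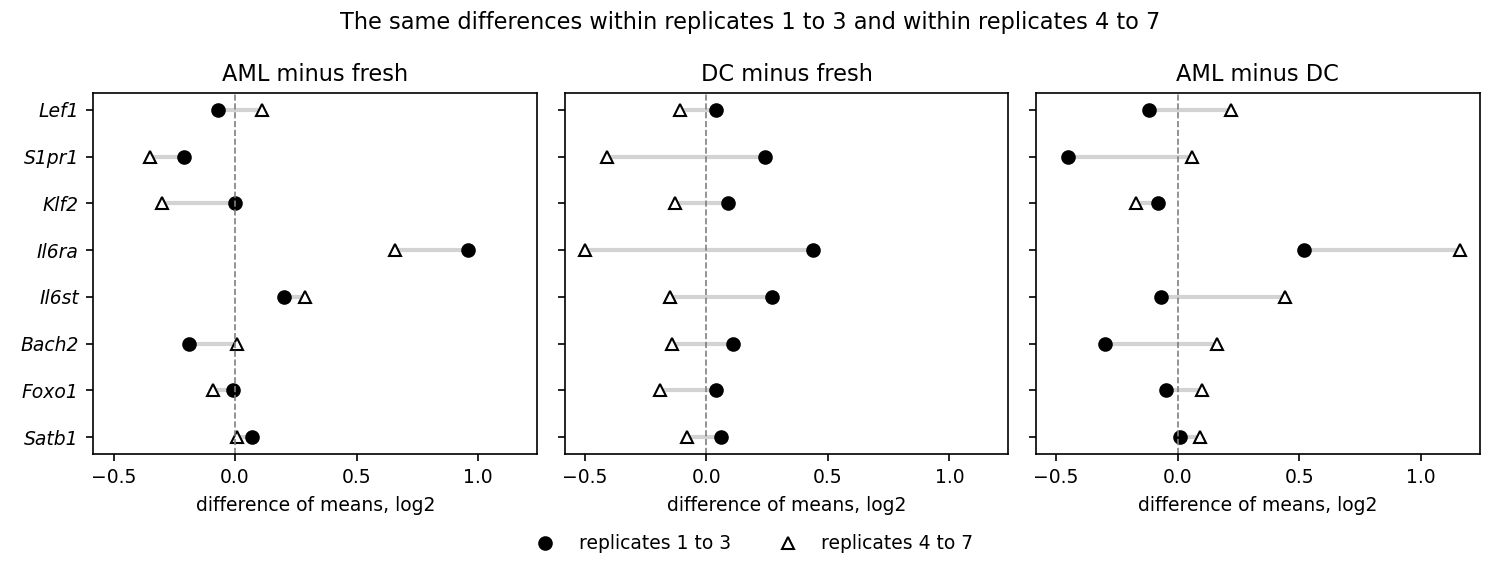
Log2 differences of means between media (x axis) for the 8 genes, within replicates 1 to 3 (filled circles) and within replicates 4 to 7 (open triangles). For DC minus fresh medium all 8 circles lie above 0 and all 8 triangles below it, from 0.44 to -0.50 for *Il6ra*.

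The gap between the means of the sets was larger in DC arrays than in the other media for 7 of the 8 genes, the exception being *Klf2* (-0.42 in AML and -0.33 in DC arrays). In DC medium replicates 1 to 3 lay above replicates 4 to 7 without overlap for all 8 genes, as did 11.2% of all genes (24.8% in either direction). The means dropped by 1.00 on the log2 scale for *S1pr1* (9.87 ± 0.09, SD, n = 3, against 8.87 ± 0.05, n = 4), by 0.89 for *Il6ra* (7.32 ± 0.03 against 6.43 ± 0.16) and by 0.47 for *Lef1* (10.73 ± 0.04 against 10.26 ± 0.04). In fresh medium the sets did not overlap for *Lef1* and *Satb1* (15.2% of all genes), and in AML medium for *S1pr1*, *Foxo1* and *Satb1* (10.6%). *Il6ra* in fresh medium was at 6.87 ± 0.12 and 6.93 ± 0.30, a difference within the spread of the arrays. The mean of replicates 4 to 7 was the lower one for 7 of 8 genes in fresh, 6 of 8 in AML and 8 of 8 in DC medium. These counts describe a division that was chosen with the data known.

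The genes most like each member were found by Pearson's r over the 21 arrays after subtracting the mean of each medium. The division between the sets enters these values, so r within the sets is given beside them, and both are descriptions of selected genes. *S1pr1* was closest to *Tmem71*, a membrane protein gene (r = 0.97, within the sets 0.87), and to *Pecam1*, which encodes the adhesion molecule CD31 (0.97 and 0.92). *Klf2* was closest to *Dyrk1b*, a kinase gene (0.94 and 0.90), and *Phkg2*, a subunit of phosphorylase kinase (0.93 and 0.88). *Lef1* was closest to *Fyb*, a T cell adaptor gene (0.95 and 0.79), and *H2-Oa*, a class II related chain (0.94 and 0.82). *Satb1* was closest to *Slc38a9*, a lysosomal amino acid sensor gene (0.94 and 0.64), and *Bin2* (0.93 and 0.52), and *Foxo1* to *Lasp1* (0.90 and 0.75) and *Kxd1* (0.86 and 0.71). *Il6ra* was closest to *Scml4* (0.88 and 0.77) and *Fam160b1* (0.88 and 0.76). Both differed from fresh medium by -0.02 after AML medium (SE 0.13 and 0.07), unlike *Il6ra*. *Il6st* was closest to *Rapgef6* (0.88 and 0.65) and *Tut7* (0.87 and 0.66), and *Bach2* to *Relch* (0.79 and 0.30) and *Lce1e* (0.77 and 0.68).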

How the data were processed

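RNA of 21 CD8+ T cell cultures was hybridised to 1-colour Affymetrix arrays. The authors deposited log2 values for transcript clusters. Their RMA step used oligo in R, as the submitters' processing notes record without versions; the genome build is not given in the sources used here. Of 22203 transcript clusters, platform annotation named 1 gene for 19572, several for 0 and none for 2631. The cluster with the highest mean was kept for 55 symbols with more than 1, which left 19505 genes with no filter on level. Gene identifiers of assembly GRCm38.p6 changed 0 symbols.

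The 3 media, 7 arrays each by the titles, were compared with limma 3.58.1 in R 4.3.3. This used lmFit and eBayes, with 1 fit over 21 arrays and no covariates. It was checked on simulated data with independent arrays. These did not hold the division into replicates 1 to 3 and 4 to 7, so the check does not cover it. P-values were adjusted by Benjamini-Hochberg over all genes and called under 0.05, two-sided. The titles call the replicates biological, but nothing says that they came from separate mice, so p-values measure the spread between these cultures. The genes named are the 8, up to 4 called genes per list and comparison or else the one with the smallest p, and the 2 most correlated with each of the 8. Genes, lists and alternatives were chosen with earlier results of these data known; some list genes are not analysed here. Replicate numbers were checked as pairs: 13 of 21 same-number pairs of deviations correlated above 0.1 (-0.11 to 0.36). These values do not exclude a shared effect of the number. The labels state no pairing, and the main fit used none. The fit with the number as a block is given below. Promoters are RefSeq windows of GRCm38.p6.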

Additional observations from a re-analysis of the deposited data

Results flagged for a closer look

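*Lef1* in AML replicate 6 stood apart from the other AML cultures, at 10.26 against a next lowest value of 10.47. The gap was 0.571 of the range of the 7 arrays, just above the 95% limit of Dixon's test. It was the single sample to pass among 24 groups of 7 arrays, and chance gives about 1 in 20.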

How the results depend on the processing

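The *Il6ra* difference kept its sign in all 35 alternatives of each AML comparison, at 0.66 to 0.96 against fresh and 0.52 to 1.16 against DC medium, and passed in 34 of them. In replicates 4 to 7 alone 0 of the 8 genes passed against fresh medium, and in replicates 1 to 3 alone 0 passed against DC medium. With each array left out in turn 1 gene passed in each. The other 7 genes passed in no alternative. With the replicate number as a block, a pairing that the arrays bear out only in part (7 of 21 correlate best with their own number), 1012 genes passed for AML against fresh (541 without it), 1 for DC against fresh and 784 for AML against DC medium (466 without it). *Il6ra* then had adjusted p of 0.00352 and 0.00171, and no call among the 8 genes changed.

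Counts over all genes moved further. For AML against fresh medium 246 genes passed with the 2 groups alone and 111 without AML replicates 4 and 5. With a block for the 2 sets of replicates 1026 passed. In replicates 1 to 3 alone (9 arrays) 374 passed, and in replicates 4 to 7 alone (12 arrays) 32. For AML against DC medium these counts were 249, 92, 797, 318 and 43 in the same order. With 1 array left out they ran from 218 to 776 and from 220 to 784. For DC against fresh medium 1 gene passed with the number as a random effect, without AML replicates 4 and 5 and with a block for the sets, 2 with array weights, and 0 to 2 with 1 array left out.

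Small differences turned sign, none of them called. In replicates 1 to 3 alone AML against fresh medium gave -0.07 for *Lef1* and 0.00 for *Klf2*, DC against fresh gave 0.04 for *Lef1*, 0.24 for *S1pr1*, 0.09 for *Klf2*, 0.44 for *Il6ra*, 0.11 for *Bach2*, 0.04 for *Foxo1* and 0.06 for *Satb1*, and AML against DC gave -0.12 for *Lef1*, -0.07 for *Il6st* and -0.05 for *Foxo1*. In replicates 4 to 7 alone AML against fresh gave 0.01 for *Bach2*, DC against fresh -0.15 for *Il6st*, and AML against DC 0.06 for *S1pr1* and 0.16 for *Bach2*. Without AML replicates 4 and 5 *Klf2* was at 0.00 against fresh and 0.04 against DC medium. Array weights gave -0.01 for *Il6st* (DC against fresh) and 0.02 for *S1pr1* (AML against DC), and centring each array 0.01 for *Satb1* (DC against fresh). With 1 array left out, AML against fresh ran from 0.00 to 0.08 for *Lef1*. DC against fresh ran from -0.09 to 0.00 for *Klf2*, from -0.19 to 0.00 for *Il6ra*, from -0.02 to 0.08 for *Il6st* and from -0.05 to 0.01 for *Satb1*. AML against DC ran from -0.06 to 0.01 for *Bach2* and from 0.00 to 0.08 for *Foxo1*. The causes were not tested. Signal over background was not assessed.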
